A study of Mus musculus with 6 samples.

Results

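The Notch signalling genes described here are the 4 receptors Notch1, Notch2, Notch3 and Notch4, the 3 ligands Jag1, Jag2 and Dll4, and the 3 targets Hes1, Hey1 and Heyl. They were chosen by symbol and matched to Ensembl identifiers, which gave 10 genes of the 55487 in the count table, and all 10 had enough reads to be tested. The ovaries came from mice at postnatal day 49. The 3 GalTKO samples carried the genotype GalT-/-, which removes galactose-1-phosphate uridylyltransferase, the enzyme of galactose breakdown that is deficient in classic galactosemia, and the 3 wildtype samples served as controls. Both genotypes shared a strain label, cbl/6-ola/129, and a diet with 2.5% galactose, given for 4 weeks after weaning. Whole-ovary total RNA was sequenced, so every level is an average over all cell types of the organ. The labels do not say whether a sample is 1 animal, and p-values therefore measure the spread between these samples.

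Notch receptors are membrane proteins that are activated by ligands on a neighbouring cell. Binding lets ADAM proteases and then gamma-secretase cut the receptor, and the freed intracellular domain joins the DNA-binding protein RBPJ and a Mastermind coactivator to switch on repressors of the Hes and Hey families. In the ovary the pathway is known for the exchange between oocytes and granulosa cells as follicles form and grow, with Jag1 and Notch2 as its main pair, and for the growth of blood vessels, where Dll4, Notch1 and Notch4 belong to endothelial cells and Notch3 to the mural cells around them.

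The genotype of the libraries was checked on the counts of the gene Galt itself. Galt had 4, 6 and 0 counts in GalTKO replicates 1 to 3, against 445, 380 and 402 counts in wildtype replicates 1 to 3. The 0 allows up to 0.156 CPM (counts scaled to library size), counting error only. Library totals ran from 19232486 to 25729564 counts. Granulosa and oocyte markers were present in every library, with Foxl2 at 249 to 287 CPM in GalTKO and 301 to 357 CPM in wildtype ovaries, and Gdf9 at 52.3 to 59.2 CPM in GalTKO and 46.6 to 65.1 CPM in wildtype ovaries. Mitochondrial genes took 2.26%, 2.22% and 3.53% of counts in GalTKO replicates 1 to 3, against 1.37%, 1.97% and 1.58% in wildtype replicates 1 to 3, so this share was higher in every GalTKO library, and its part in the Notch gene differences was not tested. GalTKO replicate 3 had the smallest total as well as the largest mitochondrial share. It was also the lowest GalTKO library for 8 of the 10 Notch genes, against 31.9% of all tested genes, and the part of depth or RNA handling in that was not tested.

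None of the 10 Notch genes passed the threshold, a Benjamini-Hochberg adjusted p under 0.05 over all 16957 genes tested with edgeR's quasi-likelihood test. The background is that 2.55% of all tested genes passed, 1.43% lower and 1.13% higher in GalTKO ovaries. An unadjusted p under 0.05 was found for 5 of the 10 (background 17.1%), of which 4 were lower (background 8.9%) and 1 was higher (background 8.19%). The Wald test of DESeq2 called Notch4 alone (background 6.19%), and so did edgeR with no filter on low counts (background 2.83%). With 1 library left out, the share of all tested genes that passed was 1.51%, 4.26% and 1.85% without GalTKO replicates 1, 2 and 3, and 1.04%, 0.945% and 1.15% without wildtype replicates 1, 2 and 3. In these fits 1 Notch gene passed, Heyl, without GalTKO replicate 3. For 9 of the 10 the log2 fold change was negative, against 46.6% of all tested genes, and the median over the 10 was -0.17 beside 0.02 over all tested genes. In 5 of them (Notch1, Notch3, Notch4, Dll4 and Hey1) every GalTKO library lay below every wildtype library, a position found for 12% of all tested genes. The reverse position was held by 0 of the 10 and by 11.8% of all tested genes, and the groups did not overlap in 23.7% of all tested genes.

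**Figure D1:**
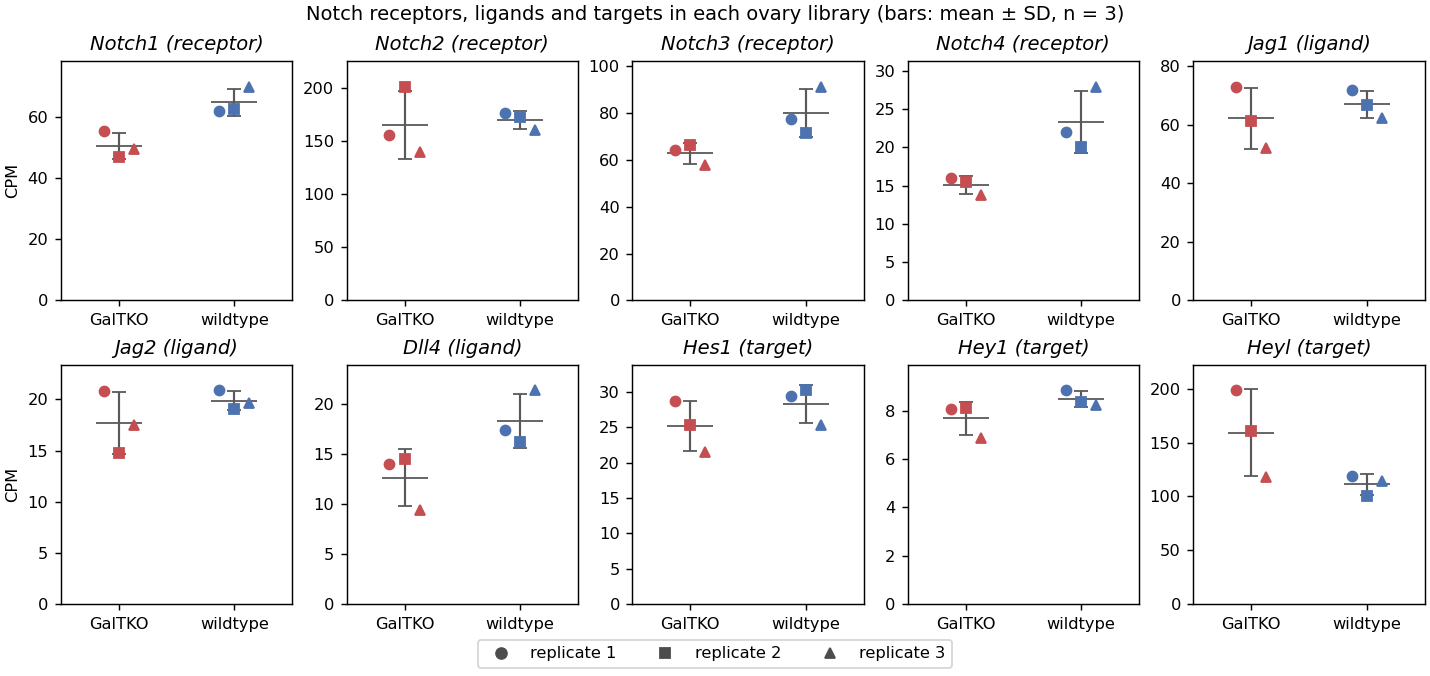
Level of each Notch gene in CPM (vertical axes, starting at 0) in the 3 GalTKO and 3 wildtype ovary libraries; points are libraries, with symbols for replicate numbers, and bars give the mean ± SD. Notch1, Notch3, Notch4, Dll4 and Hey1 show GalTKO points that all lie below the wildtype points, and Heyl is the gene whose GalTKO mean lies above its wildtype mean.

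The receptors differed from each other in level. Levels of different genes are compared here per length, as TPM, which are counts divided by the summed exon length of the gene and scaled to the same sum in every library. Over the 6 libraries Notch2 had a median level of 43.8 TPM (range 34.2 to 53.0), Notch3 one of 23.8 TPM (18.8 to 32.8), Notch1 one of 11.6 TPM (9.18 to 14.3) and Notch4 one of 6.22 TPM (4.52 to 10.1). The level of Notch2, the receptor of granulosa cells, was thus the highest of the receptors in every library. The level of the endothelial receptor Notch4 was below that of Notch1 within each library, although their ranges over the libraries overlapped. Among the ligands, Jag1 stood at 31.5 TPM (23.6 to 36.1), Dll4 at 11.1 TPM (6.42 to 16.1) and Jag2 at 7.89 TPM (6.01 to 8.79). Of the targets, Heyl had the highest level of all 10 genes at 66.8 TPM (54.3 to 109), followed by Hes1 at 37.7 TPM (27.9 to 42.4), and Hey1 had 7.07 TPM (5.55 to 7.93). In the order of medians (Heyl, Notch2, Hes1, Jag1, Notch3, Notch1, Dll4, Jag2, Hey1, Notch4), only the steps between Heyl and Notch2 and between Notch3 and Notch1 separated neighbours whose ranges over the libraries did not overlap. The length used covers every annotated exon of a gene (14232 bases for Notch1 and 8089 for Notch3). The order and these gaps can depend on that choice, and other lengths were not tried.

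Notch4, the receptor that is largely restricted to endothelial cells (ENSMUSG00000015468; GRCm38 chromosome 17, 34564268 to 34588503, plus strand), had the largest difference among the 10 with all libraries. Heyl had a larger one without GalTKO replicate 3 (0.69 for Heyl and -0.57 for Notch4) and without wildtype replicate 3 (0.53 for Heyl and -0.48 for Notch4). Notch4 stood at 16.02, 15.5 and 13.8 CPM in GalTKO replicates 1 to 3, against 22.0, 20.0 and 27.9 CPM in wildtype replicates 1 to 3. All GalTKO values lay below all wildtype values, and wildtype replicate 3 was the highest. This is a log2 fold change of -0.62 ± 0.15 (SE, n = 3 each; 95% interval -0.96 to -0.29), a fold of 0.649, with an edgeR adjusted p of 0.0699. It passed in DESeq2 (adjusted p = 0.00866) and in edgeR with no filter on low counts (0.00678), and in no fit with a library left out, where the log2 fold change ran from -0.73 to -0.48. Over all its alternatives the adjusted p ran from 0.00678 to 0.199. Notch4 lies in the major histocompatibility complex. Within 1 Mb of it 9 of 103 tested genes passed, 3 higher and 6 lower, all of them H2 genes, whereas at most 1 gene passed in the same window around any other member. H2-Ea-ps, 0.22 Mb away and chosen after its values were seen, had 261, 171 and 185 counts in GalTKO replicates 1 to 3 and 0 in each wildtype library. It is annotated as a polymorphic pseudogene. The shared strain label does not say whether both genotypes carry the same alleles in this region. H2 genes share sequence with their paralogs, so their counts are uncertain, and the part of this neighbourhood in the Notch4 difference was not tested.

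Notch1, which endothelial cells and other ovarian cells use (ENSMUSG00000026923; chromosome 2, 26457903 to 26516663, minus strand), had 55.5, 47.1 and 49.5 CPM in GalTKO replicates 1 to 3, against 62.1, 62.9 and 70.1 CPM in wildtype replicates 1 to 3. The groups did not overlap. Its log2 fold change was -0.36 ± 0.10 (SE, n = 3 each; 95% interval -0.58 to -0.14; edgeR adjusted p = 0.108). Notch3, the receptor of pericytes and vascular smooth muscle (ENSMUSG00000038146; chromosome 17, 32120820 to 32166852, minus strand), had 64.3, 66.1 and 57.6 CPM in GalTKO replicates 1 to 3 and 77.2, 71.4 and 91.1 CPM in wildtype replicates 1 to 3. These groups did not overlap either, and wildtype replicate 3 again stood highest. The log2 fold change of Notch3 was -0.35 ± 0.11 (SE; 95% interval -0.60 to -0.10; edgeR adjusted p = 0.157). Notch2, the granulosa cell receptor (ENSMUSG00000027878; chromosome 3, 98013527 to 98150361, plus strand), had 156, 201 and 139.7 CPM in GalTKO replicates 1 to 3, against 177, 173 and 160.4 CPM in wildtype replicates 1 to 3. Its GalTKO values spread around the wildtype ones. The log2 fold change of -0.04 ± 0.13 (SE) had a 95% interval of -0.34 to 0.27, so a fold between 0.788 and 1.204 was covered, and its sign changed without GalTKO replicate 1 (0.0051) or replicate 3 (0.070).

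Dll4, the ligand of endothelial tip and arterial cells (ENSMUSG00000027314; chromosome 2, 119325784 to 119335962, plus strand), was the ligand with the largest difference. It stood at 14.0, 14.5 and 9.37 CPM in GalTKO replicates 1 to 3, against 17.4, 16.2 and 21.3 CPM in wildtype replicates 1 to 3. The groups did not overlap, with GalTKO replicate 3 lowest and wildtype replicate 3 highest. Dll4 thus had a log2 fold change of -0.53 ± 0.19 (SE, n = 3 each; 95% interval -0.96 to -0.10; edgeR adjusted p = 0.206), and it ran from -0.64 to -0.36 with a library left out. Jag1, the ligand that oocytes present to granulosa cells and that vessels also use (ENSMUSG00000027276; chromosome 2, 137081456 to 137116644, minus strand), had 73.0, 61.4 and 52.2 CPM in GalTKO replicates 1 to 3 and 71.8, 66.9 and 62.5 CPM in wildtype replicates 1 to 3. Its groups overlapped (log2 fold change -0.11 ± 0.13, SE; 95% interval -0.40 to 0.18; edgeR adjusted p = 0.72). Without GalTKO replicate 3 that value was 0.0034. Jag2, the second Jagged ligand (ENSMUSG00000002799; chromosome 12, 112907819 to 112929776, minus strand), had 20.8, 14.8 and 17.5 CPM in GalTKO replicates 1 to 3, against 20.9, 19.03 and 19.7 CPM in wildtype replicates 1 to 3, again with overlap (-0.17 ± 0.14, SE; 95% interval -0.49 to 0.15; edgeR adjusted p = 0.602).

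The promoters of Notch4 and Dll4 are shown because these were the receptor and the ligand with the largest differences. Both come from RefSeq on GRCm38.p6, run 5′ to 3′ from 250 bases before to 50 bases after the annotated start, and lie on the plus strand at chr17:34564045-34564344 and chr2:119325534-119325833. Capitals mark TGANTCA, the AP-1 motif, in Notch4 (bases 247 to 253 of the window) and the TATA-like TATATAA in Dll4 (bases 250 to 256).
Notch4: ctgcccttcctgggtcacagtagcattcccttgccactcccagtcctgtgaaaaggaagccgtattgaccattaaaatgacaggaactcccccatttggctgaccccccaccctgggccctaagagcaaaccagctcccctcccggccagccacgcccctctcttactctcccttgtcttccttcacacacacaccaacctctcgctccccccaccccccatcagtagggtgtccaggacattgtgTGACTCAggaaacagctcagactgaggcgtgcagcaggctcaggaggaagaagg
Dll4: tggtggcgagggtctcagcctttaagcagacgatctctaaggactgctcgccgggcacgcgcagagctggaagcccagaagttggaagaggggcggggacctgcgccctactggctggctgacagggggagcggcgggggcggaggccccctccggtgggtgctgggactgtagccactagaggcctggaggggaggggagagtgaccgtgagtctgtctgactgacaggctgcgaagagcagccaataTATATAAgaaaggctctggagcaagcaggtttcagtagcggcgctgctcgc
Of the 10 genes, 7 were matched to a RefSeq promoter, all but Hes1, Hey1 and Heyl. The AP-1 motif on either strand was found in 7.81% of 32851 promoter windows and in 1 of these 7, and TATATAA in 3.24% of all windows and in 1 of the 7. TGGGAA, the core that RBPJ binds, was in 25.6% of all windows and in 0 of the 7, and CACGTG, an E-box bound by Hey proteins, in 7.15% of all windows and in 0 of the 7. These matches describe letters in a short window and do not show binding.

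The 3 targets differed in sign. Heyl, a Hey family repressor found in mural cells among others (ENSMUSG00000032744; chromosome 4, 123233556 to 123249875, plus strand), was the single member with a positive log2 fold change. It had 199, 161 and 118 CPM in GalTKO replicates 1 to 3, against 119, 100.4 and 115 CPM in wildtype replicates 1 to 3. GalTKO replicates 1 and 2 lay above every wildtype library, while replicate 3 lay inside the wildtype range. Heyl thus had a log2 fold change of 0.51 ± 0.18 (SE, n = 3 each; 95% interval 0.10 to 0.93; edgeR adjusted p = 0.208). Without GalTKO replicate 3 it was 0.69 and passed (edgeR adjusted p = 0.045), and over all alternatives the adjusted p ran from 0.045 to 0.449. Heyl shares chromosome 4 with Galt, at a distance of 81.5 Mb. Hes1, the repressor through which many tissues respond to Notch (ENSMUSG00000022528; chromosome 16, 30064384 to 30067796, plus strand), had 28.6, 25.4 and 21.5 CPM in GalTKO replicates 1 to 3 and 29.5, 30.2 and 25.3 CPM in wildtype replicates 1 to 3. The groups overlapped (log2 fold change -0.17 ± 0.13, SE; 95% interval -0.47 to 0.13; edgeR adjusted p = 0.57). Hey1, a target with a role in arterial endothelium (ENSMUSG00000040289; chromosome 3, 8663359 to 8667256, minus strand), had 8.05, 8.11 and 6.87 CPM in GalTKO replicates 1 to 3, against 8.84, 8.37 and 8.23 CPM in wildtype replicates 1 to 3. These values did not overlap but lay close together, with a log2 fold change of -0.14 ± 0.14 (SE; 95% interval -0.47 to 0.19; edgeR adjusted p = 0.669).

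**Figure D2:**
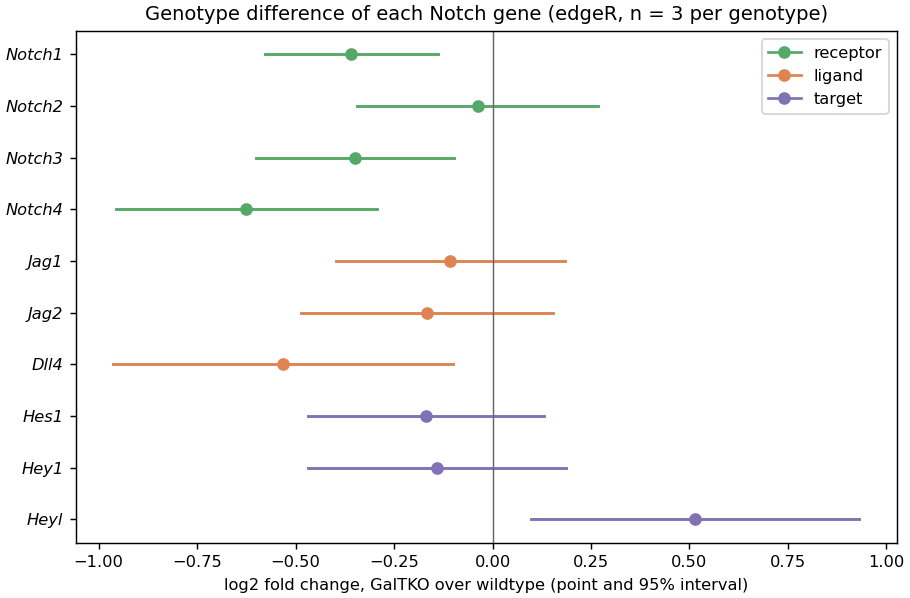
Log2 fold change of each Notch gene, GalTKO over wildtype, on the horizontal axis, with its 95% interval from the edgeR fit (n = 3 per genotype); colours give the role. The intervals of Notch1, Notch3, Notch4 and Dll4 lie below 0 and that of Heyl above 0, before adjustment for the number of genes tested, and the intervals of the other 5 genes include 0.

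Endothelial markers were lower in the same libraries. Each of the 15 on the list had a log2 fold change under 0, the median was -0.36, and 3 of them fell, where 1.43% of all tested genes passed in that direction. Kdr, the main VEGF receptor of endothelium, fell to 76.4, 80.6 and 71.9 CPM in GalTKO replicates 1 to 3, against 115, 119 and 133 CPM in wildtype replicates 1 to 3 (log2 fold change -0.68 ± 0.09, SE; edgeR adjusted p = 0.0077). Pecam1, an endothelial junction protein, had a log2 fold change of -0.60 ± 0.12 (edgeR adjusted p = 0.0441) and lost its call among protein-coding genes alone and in 5 fits with a library left out, all but that without wildtype replicate 1, with an adjusted p of up to 0.142. The summed level of the 15 markers was 669, 761 and 689.5 CPM in GalTKO replicates 1 to 3, against 842, 952 and 1018 CPM in wildtype replicates 1 to 3, without overlap, and none of the markers was at 0. In whole-organ RNA, fewer cells of a type and less RNA per cell cannot be told apart.

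Set against the endothelial markers of the same library, the endothelial Notch genes overlapped between genotypes. As a percentage of the summed marker level, Notch4 stood at 2.40, 2.04 and 2.0 in GalTKO replicates 1 to 3, against 2.61, 2.11 and 2.74 in wildtype replicates 1 to 3. Notch1 stood at 8.29, 6.20 and 7.18 in GalTKO and at 7.37, 6.61 and 6.88 in wildtype replicates 1 to 3. Dll4 stood at 2.09, 1.91 and 1.36 in GalTKO and at 2.06, 1.70 and 2.09 in wildtype replicates 1 to 3. These ratios were formed after the values were seen and carry no test.

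Mural cell markers were split in sign. Of 12 pericyte and smooth muscle markers, 6 had a negative and 6 a positive log2 fold change, with a median of 0.03, and 1 passed, beside 2.55% of all tested genes. That was Rgs5, a pericyte regulator of G protein signalling, which fell to 118, 115 and 135 CPM in GalTKO replicates 1 to 3, against 185, 201 and 218 CPM in wildtype replicates 1 to 3 (log2 fold change -0.72 ± 0.10, SE; edgeR adjusted p = 0.0098, and 0.0552 without wildtype replicate 2). An unadjusted edgeR p under 0.05 was found for 3 of the 12, Rgs5 among them, all lower (background 8.9%). For 0 of the 12 it was found in the higher direction (background 8.19%). Pdgfrb, the receptor that recruits pericytes, had 183, 189 and 140.7 CPM in GalTKO and 181, 164 and 184 CPM in wildtype replicates 1 to 3. The summed mural level was 1479 to 2192 CPM in GalTKO and 1742 to 1974 CPM in wildtype ovaries, and none of these markers was at 0. Most of that sum came from the smooth muscle genes Acta2, Myh11 and Tagln. Their means were 750, 303 and 298 CPM in GalTKO and 667, 279 and 253 CPM in wildtype ovaries. A ratio to the sum is therefore mainly one to smooth muscle genes and does not give the level relative to pericytes. Notch3 as a percentage of that sum was 3.28, 3.02 and 3.90 in GalTKO replicates 1 to 3, against 3.91, 3.99 and 5.23 in wildtype replicates 1 to 3. The groups were barely apart, with 3.90 in GalTKO replicate 3 next to 3.91 in wildtype replicate 1. This ratio too was formed after the values were seen and carries no test.

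**Figure D3:**
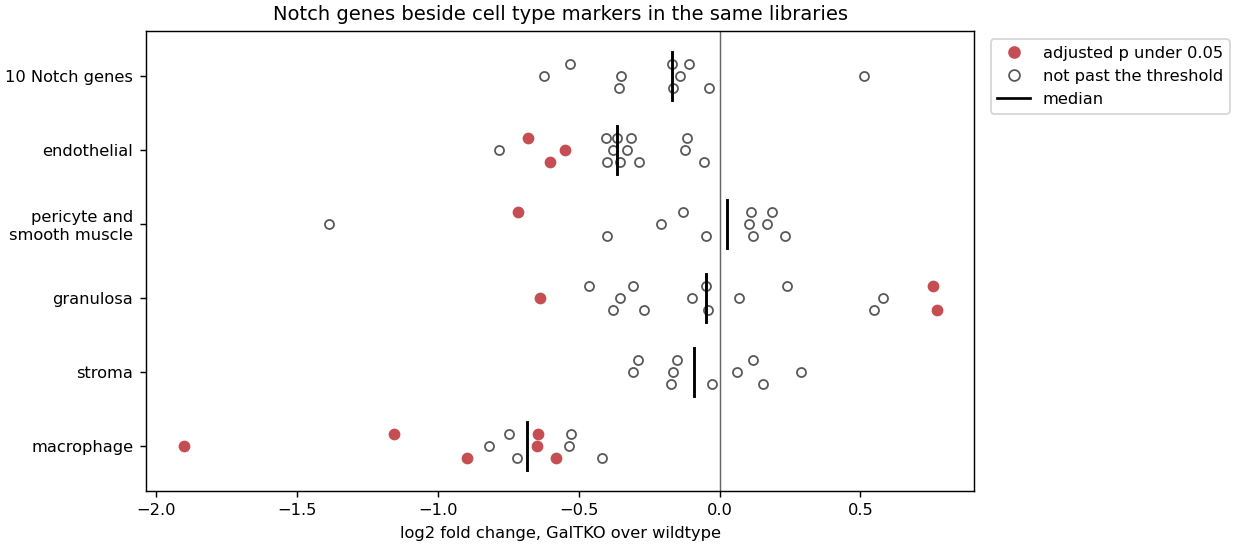
Log2 fold change, GalTKO over wildtype (horizontal axis), of the 10 Notch genes and of markers of 5 ovarian cell types; each point is a gene, filled where its adjusted p was under 0.05, and the black bar is the median. All endothelial and all macrophage points lie below 0, while pericyte, granulosa and stromal markers fall on both sides.

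Markers of further ovarian cell types are given as the summed level of each list and its calls, beside the 1.43% of all tested genes that passed lower and the 1.13% that passed higher. The 12 macrophage markers, none of them at 0, summed to 314 to 348 CPM in GalTKO and 489 to 587 CPM in wildtype ovaries. All 12 had a negative log2 fold change (median -0.68) and an unadjusted edgeR p under 0.05 (background 8.9% lower), and 6 of the 12 passed. Luteal markers summed to 2555 to 6338 CPM in GalTKO and 6469 to 8434 CPM in wildtype ovaries, and theca and interstitial markers to 7331 to 10792 CPM in GalTKO and 11705 to 16729 CPM in wildtype ovaries. Each of these lists had 1 gene past the threshold, and it was the same gene, Star, which brings cholesterol into mitochondria and stands in both lists. Of the 8 theca and interstitial markers, 4 had a negative and 4 a positive log2 fold change, and the sum is mostly that of Cyp11a1 and Hsd3b1, steroid-producing enzymes whose means were 3415 and 3640 CPM in GalTKO and 5517 and 5518 CPM in wildtype ovaries. Granulosa markers summed to 6262.5 to 7164 CPM in GalTKO and 6215 to 7552 CPM in wildtype ovaries. Of these 15, 2 rose (Amh by 0.76 and Slc18a2 by 0.77 on the log2 scale) and 1 fell (Nr5a2, -0.64). An unadjusted edgeR p under 0.05 was found for 10 of them (background 17.1%), 6 lower (background 8.9%) and 4 higher (background 8.19%). The 9 surface epithelium markers all had a positive log2 fold change, 1 of them past the threshold (Krt8, 0.60), with sums of 125 to 201 CPM in GalTKO and 124 to 134 CPM in wildtype ovaries. None of the 10 stromal markers passed in edgeR or had an unadjusted p under 0.05, and their sums were 3079 to 5800 CPM in GalTKO and 4094 to 4450 CPM in wildtype ovaries. Of the 12 oocyte markers 0 passed, and their sums were 316 to 380 CPM in GalTKO and 278 to 410 CPM in wildtype ovaries. The part of cell composition in the Notch gene differences was not tested.

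The rest of the pathway was covered by 61 genes from ligand relatives to corepressors, of which 55 had enough reads to be tested. One of them passed, the nuclear factor Rbpj, which was lower, so 1 of 55 stands beside the background of 2.55% of all tested genes. The median over the 55 was -0.05, with 33 negative and 22 positive values. Genes of receptor cleavage did not pass in either direction: of 9 tested, Adam10, the protease of the first cut, had 284 ± 22.8 CPM in GalTKO and 257 ± 3.75 CPM in wildtype ovaries (SD, n = 3), and the gamma-secretase subunit gene Aph1a 50.2 ± 6.90 CPM in GalTKO and 59.0 ± 5.01 CPM in wildtype ovaries. Among 6 genes of receptor maturation, Pofut1, which adds O-fucose to Notch, stood at -0.23 ± 0.10 (log2 fold change, SE) and the fringe enzyme gene Mfng at -0.24 ± 0.16. Of 14 genes of endocytosis and turnover, Dtx3, a Deltex family gene, stood at 0.32 ± 0.13 and Numbl, a relative of the Notch inhibitor Numb, at 0.27 ± 0.11. Of 11 corepressor genes, Tle3 stood at -0.39 ± 0.14 and Tle1 at -0.25 ± 0.13, both of the Groucho family that Hes proteins recruit. The histone acetyltransferase gene Kat2b stood at -0.23 ± 0.10 in the nuclear group. None of these 9 genes passed.

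Of the other ligand relatives, 3 of 5 had enough reads to be tested. Of the 7 genes grouped as other targets, which are Hes and Hey family genes and Nrarp, 3 had enough reads. The target Hey2 had 53.3 ± 5.52 CPM in GalTKO and 54.7 ± 6.54 CPM in wildtype ovaries (SD, n = 3). Its log2 fold change was -0.04 ± 0.12 (SE). Hes6, which is known to oppose Hes1, had 9.56, 11.4 and 11.5 CPM in GalTKO replicates 1 to 3, against 14.5, 14.2 and 15.1 CPM in wildtype replicates 1 to 3. Its groups did not overlap (log2 fold change -0.43 ± 0.13, SE; edgeR adjusted p = 0.133). Nrarp, a feedback inhibitor induced by Notch, stood at -0.23 ± 0.26, and at 0.038 without wildtype replicate 3. Dlk1, a non-canonical relative of the ligands, had 2.55, 16.9 and 1.87 CPM in GalTKO replicates 1 to 3, against 1.159, 1.86 and 1.21 CPM in wildtype replicates 1 to 3. GalTKO replicate 2 decided its mean: the log2 fold change was 2.33 ± 0.92 (edgeR adjusted p = 0.275) with all libraries and 0.66 without that one. Dner, a neuronal relative of the ligands, stood at -0.77 ± 0.48.

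**Figure D4:**
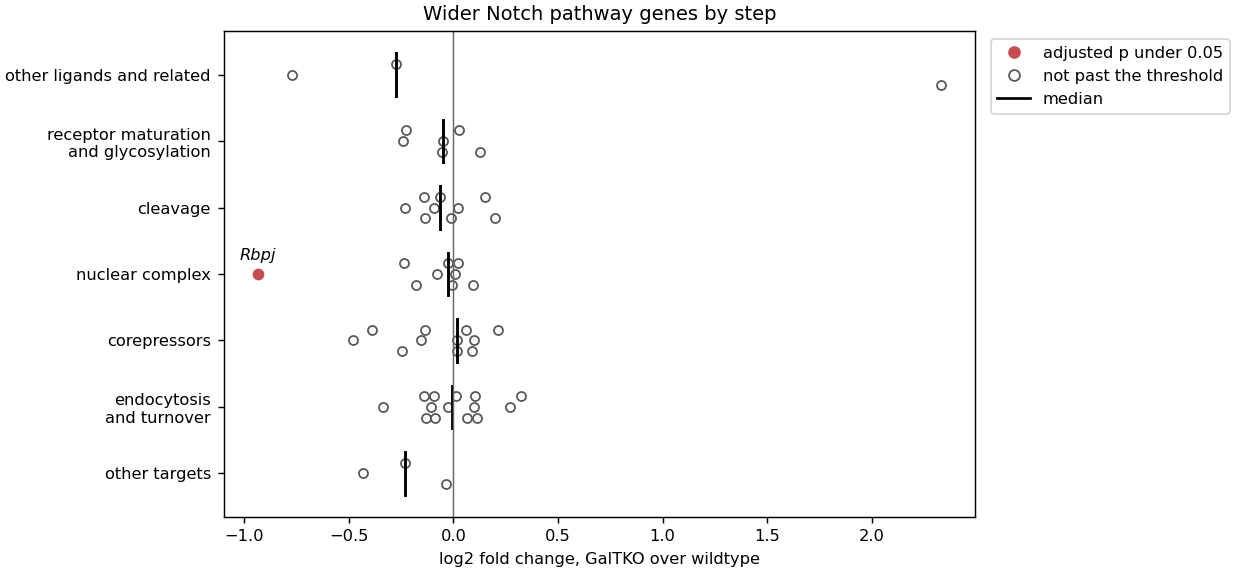
Log2 fold change, GalTKO over wildtype (horizontal axis), of 55 further Notch pathway genes grouped by step; each point is a gene, filled where its adjusted p was under 0.05, and the black bar is the median of the step. Rbpj is the only filled point, and the point far to the right is Dlk1, which is high in 1 GalTKO library.

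Rbpj, the DNA-binding partner of every Notch receptor (ENSMUSG00000039191; chromosome 5, 53466152 to 53657362, plus strand), fell to 57.9, 59.0 and 90.2 CPM in GalTKO replicates 1 to 3, against 140.1, 138 and 118 CPM in wildtype replicates 1 to 3. The groups lay apart, with GalTKO replicate 3 nearest to the wildtype values. For Rbpj this gave a log2 fold change of -0.94 ± 0.18 (SE, n = 3 each; 95% interval -1.35 to -0.52), a fold of 0.523, with an edgeR adjusted p of 0.0428. The call was lost among protein-coding genes alone (0.0553) and in 5 of the 6 fits with a library left out, all but that without GalTKO replicate 3, with an adjusted p of up to 0.137. The direction held in each of them, from -1.17 to -0.82 with a library left out.

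A processed pseudogene of Rbpj moved the other way. Rbpj-ps3 (ENSMUSG00000079575; chromosome 6, 46529354 to 46530794, minus strand) had 346, 300 and 108 counts in GalTKO replicates 1 to 3, against 30, 20 and 21 counts in wildtype replicates 1 to 3. It rose by 3.43 ± 0.37 (log2, SE, n = 3 per group; edgeR adjusted p = 0.00335), a fold of 10.8. The GalTKO library with the fewest pseudogene counts, replicate 3, was the one with the highest Rbpj level. In the reference transcripts the 1441 bases of the pseudogene differ from the Rbpj coding sequence at 4 positions, an identity of 99.7%, and 89.0% of its 50-base words occur unchanged in an Rbpj transcript. In the other direction, 22.9% of the 50-base words of the Rbpj transcript of 5459 bases occur in the pseudogene. Shown is the coding stretch of 120 bases with the most differences, 2, in capitals, which lies at bases 1106 to 1225 of the Rbpj transcript and at chr6:46529843-46529962, minus strand, in the pseudogene (GENCODE M21, GRCm38).
Rbpj: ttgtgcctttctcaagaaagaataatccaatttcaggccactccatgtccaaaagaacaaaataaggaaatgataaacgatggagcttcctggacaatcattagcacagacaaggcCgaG
Rbpj-ps3: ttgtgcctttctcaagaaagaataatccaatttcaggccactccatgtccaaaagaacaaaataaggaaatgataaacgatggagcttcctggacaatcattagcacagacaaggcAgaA
Reads of 50 bases from most of the pseudogene sequence could not be placed by their letters alone, and longer or paired reads were not examined. The sources used here do not give how reads with several matches were counted, which leaves both values uncertain. With the counts of both loci summed, the level was 71.3, 71.9 and 95.8 CPM in GalTKO replicates 1 to 3, against 141, 139 and 119 CPM in wildtype replicates 1 to 3. The summed gene had a log2 fold change of -0.74 ± 0.13 and passed (edgeR adjusted p = 0.0294). Reads that were dropped for having several matches are missing from both loci, and their part in the Rbpj difference was not tested.

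**Figure D5:**
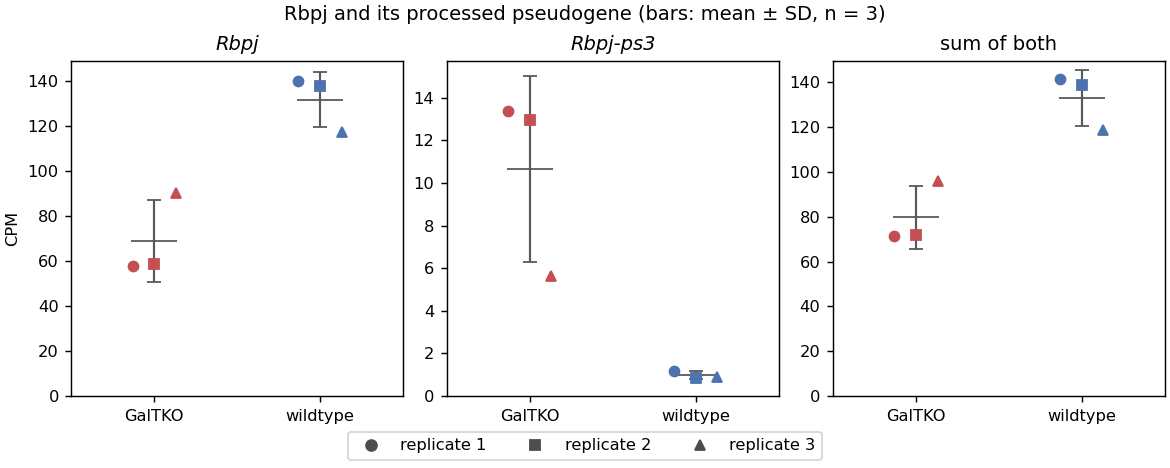
Level in CPM (vertical axes, starting at 0, with a scale of their own in each panel) of Rbpj, of its processed pseudogene Rbpj-ps3 and of their sum in 3 GalTKO and 3 wildtype libraries; points are libraries and bars the mean ± SD. Rbpj and the sum are lower in every GalTKO library and the pseudogene is higher, and GalTKO replicate 3 lies nearest to the wildtype points in each panel.

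The genes whose pattern over the 6 libraries was most like that of Notch4 and Notch1, the members with the smallest p, were found by the mean absolute difference of log2 CPM centred on each gene's own mean, among 13413 protein-coding genes. For Notch4 these were Tent5c, Psmb5 and Cd93, with differences of 0.041, 0.049 and 0.052 on the log2 scale. Cd93, a receptor of endothelial cells and some myeloid cells, had 175, 161 and 145 CPM in GalTKO replicates 1 to 3, against 228, 237 and 296 CPM in wildtype replicates 1 to 3. For Notch1 they were Atp5g3, 5031439G07Rik and Gatad2a, with differences of 0.034, 0.037 and 0.037. The likeness is a description over these 6 libraries.

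Neighbouring annotation can touch some of these values. On the opposite strand, 0610009E02Rik shares 1068 exon bases with Notch1, Gm17276 shares 488 with Notch3 and Gm14207 shares 214 with Dll4. Their sums were 43, 46 and 6 counts in GalTKO libraries and 19, 45 and 18 counts in wildtype libraries, against 3477 in GalTKO and 4658 in wildtype libraries for Notch1, 4301 in GalTKO and 5722 in wildtype libraries for Notch3, and 877 in GalTKO and 1308 in wildtype libraries for Dll4. On the same strand, Gm42820 shares 541 exon bases with Notch2 and had 69 counts in GalTKO and 56 in wildtype libraries.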

How the data were processed

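For each of 6 libraries the authors deposited unnormalized counts, 1 whole number per Ensembl gene. Per the labels' protocols, ovaries were frozen, ribosomal RNA was depleted with Ribo-Zero Gold and libraries were made with a stranded TruSeq total RNA kit, so unspliced RNA can be among the reads. The submitters' processing notes name cutadapt 1.16, STAR 2.7.6a, featureCounts 1.6.3, DESeq2 1.30.1 and GRCm38. The sources used here do not give the strand option of featureCounts or its treatment of multiply matching reads.

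Symbols and coordinates came from GENCODE M21 on GRCm38, which matched 55227 of 55487 identifiers. Counts were tested in R 4.3.3 with edgeR 4.0.16 (filterByExpr with a minimum count of 10 and total of 15, TMM scaling, robust quasi-likelihood fit, genotype as the only term, all 6 libraries), with Benjamini-Hochberg adjustment over 16957 genes and a threshold of 0.05. The SE is the size of the log2 fold change divided by the square root of F. CPM uses TMM-scaled library sizes, and TPM the summed exon length. The alternatives were RLE scaling, the DESeq2 1.42.0 Wald test, no filter, a filter of 1 CPM in 3 libraries, protein-coding genes only, a replicate block and each library left out. Summing Rbpj with Rbpj-ps3 was added after seeing the data. No 2 libraries of a group agreed within sampling noise (chi-square per degree of freedom of at least 13.1).

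The members and lists were chosen with earlier results of these data known. Named genes are all members, Galt, pathway genes past the threshold and up to 2 of each pathway group with the smallest p, up to 2 markers per list, and the 3 protein-coding genes (mean of at least 1 CPM) most like each of the 2 members with the smallest p; H2-Ea-ps, Rbpj-ps3, Star, Cyp11a1, Hsd3b1, Amh, Slc18a2, Nr5a2 and Krt8 were named after their values were seen. Hey2, Acta2, Myh11 and Tagln were also named after their values were seen. Figures used Python 3.11.15 and matplotlib 3.10.9.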

Additional observations from a re-analysis of the deposited data

How the results depend on the processing

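Of 120 values (10 Notch genes under 12 alternatives each), 114 kept their direction and their side of the threshold. Notch4 passed in DESeq2 (-0.63) and with no filter on low counts (-0.64), so the count of Notch genes past the threshold was 1 in each of these and 0 to 1 with a library left out, when Heyl passed without GalTKO replicate 3. With a library left out, log2 fold changes ran from -0.20 to 0.070 for Notch2, from -0.24 to 0.0034 for Jag1, from 0.32 to 0.69 for Heyl, from -0.39 to 0.038 for Nrarp and from -0.13 to 0.074 for Pdgfrb, with changes of sign in all of these but Heyl. The count of further pathway genes was 0 among protein-coding genes alone, 0 to 1 with a library left out and 1 with Rbpj and Rbpj-ps3 summed. Over all genes, 433 passed, against 1049 in DESeq2, 877 with no filter, 260 among protein-coding genes alone and 165 to 742 with a library left out, where groups are smaller. The causes of these shifts were not tested.

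With the replicate number as a block, 0 Notch genes, 0 further pathway genes and 321 of all genes passed, and the adjusted p of Rbpj was 0.0834 (-0.96). Deviations of same-numbered libraries had correlations of 0.13, -0.04 and 0.11 for replicates 1, 2 and 3. Those of differently numbered libraries ran from -0.16 to 0.038. The values for replicates 1 and 3 lay above that range, so this check does not settle whether samples were paired. The labels do not say that the numbers pair samples, and the main fit left the block out. The least counted member, Hey1, had 528 counts in GalTKO and 609 in wildtype libraries, and its SE of 0.14 was close to the 0.13 of Notch2 with 11369 counts in GalTKO and 12205 in wildtype libraries.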
